A study of Danio rerio with 2 samples.

Results

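The 7 genes osr1, lhx1a, sim1a, pax2a, pax8, hnf1ba and wt1a encode transcription factors of the intermediate mesoderm, the mesodermal strip that forms the pronephric (embryonic) kidney,, and were followed by ATAC-seq in an npas4l mutant zebrafish embryo and a wild type one. Their open regions were chosen by position in the deposited table and not by their values. The 7 genes and the rules themselves were chosen with earlier results of these data known. All regions assigned to 1 of the 7 genes were taken, together with regions without an assigned gene with a centre at most 50 kb from that gene's transcription start site (TSS) and nearer to it than to any other TSS of the table. This gave 30 of 35854 regions, of which 12 were assigned and 18 were linked by distance. A region was called a promoter region when its centre lay within 1 kb of the TSS of its assigned gene, and distal otherwise, which gave 23 distal and 7 promoter regions.

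ATAC-seq marks open chromatin by the insertion of sequencing adapters by the transposase Tn5. One library came from a single embryo homozygous for the npas4l allele bns297, and 1 from a single wild type embryo, both taken at the 1-somite stage after removal of chorion and yolk. The growth protocol names the AB strain in both entries. Npas4l is a bHLH-PAS transcription factor required for endothelial and blood progenitors, and its loss is known as the cloche phenotype. Genotypes are taken from the labels, and the npas4l gene itself was not analysed here. The libraries held 7066666 (mutant) and 7853828 (wild type) recovered reads in regions, and the median region held 94 normalised reads in both. Each genotype had 1 library, so the text holds values and no test of genotype. Log2 ratios divide mutant by wild type after adding 1 to both, and are followed in parentheses by an exact (Clopper-Pearson) 95% interval. That interval covers counting error only, and not the spread between embryos or libraries. It takes each read as separate. Amplified reads with no molecular tag need not be separate molecules, so it may be too narrow even for counting error. To show how far these libraries differed at comparable places, a region was also set beside the central 95% of all regions of its class (distal or promoter) and its level decile (decile of the mean of both libraries).

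In the zebrafish, the intermediate mesoderm arises beside the lateral mesoderm that yields blood and vessels, and is then patterned into the podocytes, tubule segments and duct of the pronephros. The zinc finger factor Osr1 and the LIM homeodomain factor Lhx1a act early in this tissue, Pax2a and Pax8 specify the tubule and duct progenitors, Hnf1ba (a homeodomain factor) patterns the tubule segments, and Wt1a (a zinc finger factor) acts in the podocytes. None of these genes is restricted to the kidney. Pax2a and Pax8 also act in the ear placode, Pax2a at the midbrain-hindbrain boundary, Hnf1ba in the hindbrain, and Sim1a in the hypothalamus. In whole embryos, fewer cells of a type and less accessibility per cell cannot be told apart.

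Accessibility at these genes was mostly somewhat lower in the mutant library at distal regions and was mixed at promoters, and the medians of both classes were close to those of the whole table. The median log2 ratio was −0.20 over the 23 distal regions and 0.05 over the 7 promoters. Over all 15802 distal and 13036 promoter regions of the table linked by the same rule, the medians were −0.10 and 0.11. The promoter median was −0.03 when pax8, sim1a or wt1a was left out, and the distal median was 0.05 with assigned regions only. The distal median lay 0.25 below the promoter median for all regions of the 7 genes, and 0.20 below it for all genes. For the 7 genes this difference (distal minus promoter) depended on the regions taken, from −0.35 without osr1 to −0.001 with assigned regions only. No single distal or promoter value lay outside the central 95% of regions like it, except 1 downstream of lhx1a. Of all linked regions 5.06% lay outside, a share set by the definition of that range.

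**Figure D1:**
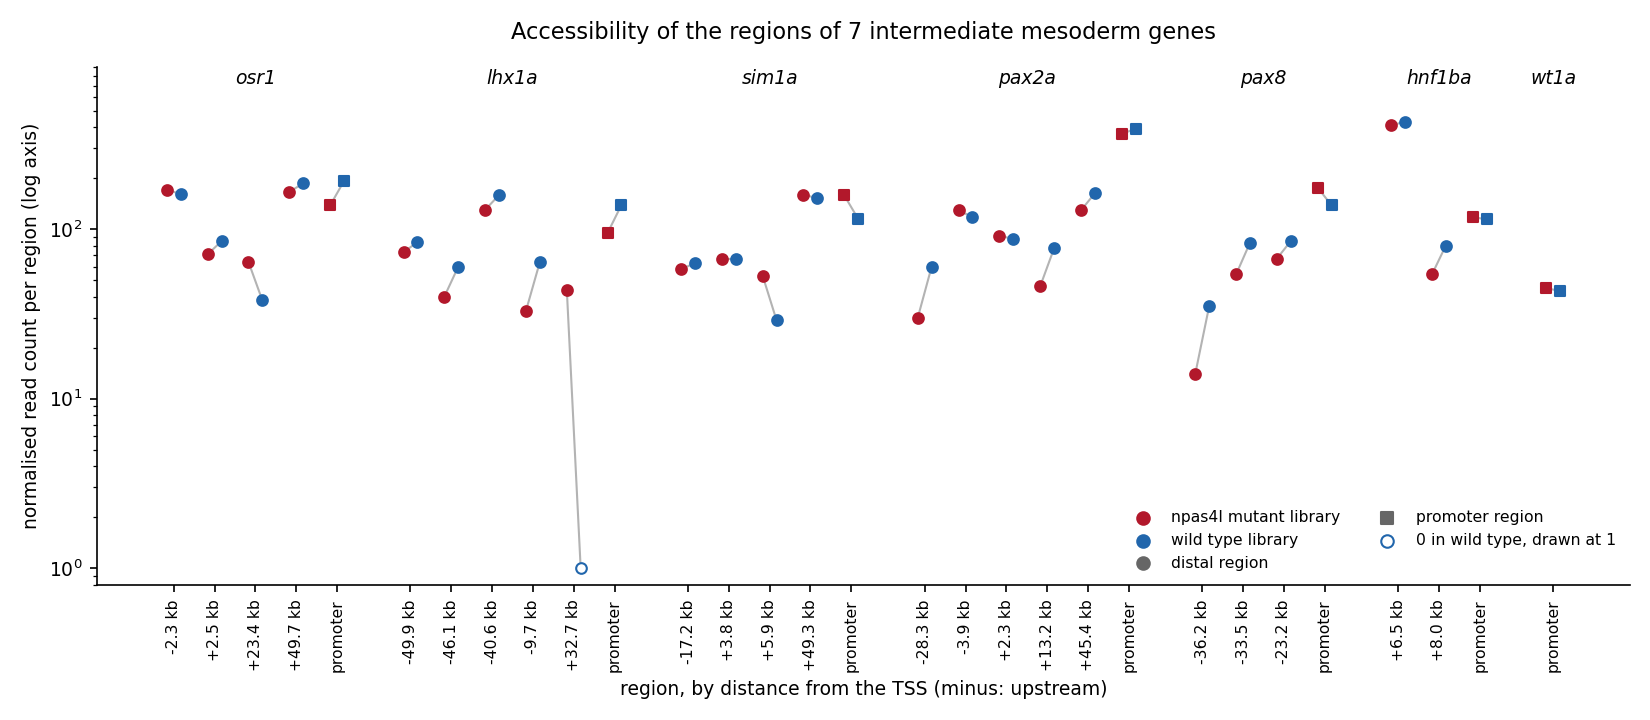
Normalised read count of each region (log axis) in the npas4l mutant library (red, left) and the wild type library (blue, right), by gene, with distal regions as circles and promoters as squares. Of the 30 pairs, 11 are at least 20% lower and 5 at least 25% higher in the mutant library, where 24.6% and 23.4% of all regions are. By class, these shares are 32.0% and 20.9% of all distal regions and 10.7% and 26.4% of all promoters. The region 32.7 kb downstream of lhx1a, with 44 normalised reads in the mutant library, against 0 in the wild type (open circle, drawn at 1), stands apart.

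The distal regions covered a median width of 333 bp (188 to 1013 bp) and the promoters 409 bp (267 to 831 bp). All of the genes but wt1a had more regions than the median gene: lhx1a and pax2a had 6 each, osr1 and sim1a 5 each, pax8 4, hnf1ba 3 and wt1a 1. The median gene of the table had 1 region. Of 14589 genes, 3.54% had 6 or more and 23.3% had 3 or more. These counts include regions linked by distance only, 18 of the 30. The distance to neighbouring TSSs, which limits such links, was not taken into account. Among the 6 genes with both classes, the region with the highest mean of both libraries was distal at osr1, lhx1a, sim1a and hnf1ba. That share, 4 of 6, compares with 42.7% of the 2804 genes that had a promoter and at least 2 distal regions. Per kb of region, the highest was distal at 3 of the 6 genes, against 48.7% of those 2804 genes. The regions just inside the 50 kb limit lay 49.9 kb upstream of lhx1a and 49.7 kb downstream of osr1, and the one just outside it 50.8 kb upstream of pax8.

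By a rule of size, 9 of 23 distal regions were at least 20% lower and 3 at least 25% higher in the mutant library, where 32.0% and 20.9% of all distal regions were. Of the 7 promoters, 2 were at least 20% lower and 2 at least 25% higher, where 10.7% and 26.4% of all promoters were. No promoter of the 7 genes was 2-fold lower or higher, where 1.02% and 2.68% of all promoters were. Below 0 lay 15 of 23 distal regions and 3 of 7 promoters, against 57.1% of all distal regions and 36.0% of all promoters. Intervals lay wholly below 0 at 6 distal regions and wholly above 0 at 3 (22.8% and 15.6% of all distal regions), and at 2 and 2 promoters (9.67% and 27.2% of all promoters). These shares are close to those of the whole table for so few regions, and regions of 1 gene are not independent of each other.

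At the early factor osr1 (ENSDARG00000014091, GRCz10 chromosome 13, 32013920 to 32019993, plus strand), 2 of the 4 distal regions lay above 0 and 2 below. The region 23.4 kb downstream, at 32037158 to 32037505, held 64 normalised reads in the mutant library, against 38 in the wild type, a log2 ratio of 0.74 (0.17 to 1.38). It was the only osr1 region with an interval wholly above 0. The osr1 region with the highest mean count, 49.7 kb downstream at 32063332 to 32063941, held 166 (mutant) and 186 (wild type) normalised reads, −0.16 (−0.47 to 0.15). The other 2, which lay 2.26 kb upstream and 2.46 kb inside the gene, had log2 ratios of 0.09 and −0.26 with intervals that included 0.

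At lhx1a (ENSDARG00000014018, chromosome 15, 27770533 to 27777699, minus strand), all 4 upstream regions held fewer reads in the mutant library. The closest, 9.68 kb upstream at 27787255 to 27787497, held 33 normalised reads in the mutant library, against 64 in the wild type, −0.94 (−1.61 to −0.32). The region 46.1 kb upstream held 40 (mutant) and 60 (wild type), −0.57 (−1.19 to 0.03), and the one 40.6 kb upstream, the one with the highest mean count of the gene, 130 and 159, −0.29 (−0.64 to 0.06). The interval excluded 0 for the closest region only, and the region 49.9 kb upstream had −0.20 (−0.66 to 0.28).

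The remaining distal region of lhx1a ran the other way. It lay 32.7 kb downstream, at 27744821 to 27745089, and held 44 normalised reads (41 recovered reads) in the mutant library and 0 in the wild type library. Set against an assumed floor of 3 wild type reads, the mutant value was 15.6-fold higher. This is no lower bound, since the counting interval begins lower, at a log2 ratio of 3.59. It was the 1 distal region of the 7 genes at least 2-fold higher, where 4.07% of all distal regions were. Of the 35854 regions, the mutant library listed 11 at 0 and the wild type library 34. By the mean of both libraries this region lay at the 1.32 percentile, a low rank that follows from the 0 in the wild type. The lowest mean of the table was 20.5, so a region at 0 in 1 library is listed only through its reads in the other. The next nearest TSS of the table, that of tbx4, was 290.3 kb away. Genes without an assigned region of their own have no TSS there, so a nearer gene may exist. Whether the DNA of this stretch is the same in both embryos was not tested.

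Of the 4 distal regions of sim1a (ENSDARG00000023316, chromosome 16, 1446530 to 1479135, minus strand), 2 lay above 0 and 1 below. Sim1a is, like Npas4l, a bHLH-PAS factor. A region inside the gene 5.93 kb from the TSS, at 1473030 to 1473379, held 53 normalised reads in the mutant library, against 29 in the wild type, 0.85 (0.20 to 1.57). It was the only distal region of sim1a with an interval that excluded 0. The region with the highest mean count, 49.3 kb downstream at 1429437 to 1430167, held 160 (mutant) and 152 (wild type), 0.07 (−0.26 to 0.40). The other 2 lay between −0.12 and 0, and the one 3.77 kb inside the gene held 67 normalised reads in both libraries.

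The distal regions of the paired-box genes pax2a and pax8 that lay more than 10 kb from the TSS were all lower in the mutant library. Over all genes, 60.5% of distal regions beyond 10 kb were below 0. At that distance 3 regions of the other genes lay above 0: 23.4 kb downstream of osr1, 32.7 kb downstream of lhx1a and 49.3 kb downstream of sim1a. At pax2a (ENSDARG00000028148, chromosome 13, 29640387 to 29674090, plus strand), the region 28.3 kb upstream, at 29611896 to 29612229, held 30 normalised reads in the mutant library, against 60 in the wild type, −0.98 (−1.71 to −0.35). The region 13.2 kb inside the gene, at 29653321 to 29653831, held 46 (mutant) and 77 (wild type), −0.73 (−1.32 to −0.20). The region 45.4 kb downstream, at 29685568 to 29685935, held 129 and 163, −0.34 (−0.69 to 0.001). The 2 pax2a distal regions within 10 kb did not share this direction, with 0.13 (3.93 kb upstream) and 0.05 (2.29 kb inside the gene) and intervals that included 0.

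All 3 distal regions of pax8 (ENSDARG00000015879, chromosome 5, 71633658 to 71643280, minus strand) lay upstream and were at least 20% lower in the mutant library. The farthest, 36.2 kb away at 71679350 to 71679538, had the lowest log2 ratio of the 30 regions, with 14 normalised reads in the mutant library, against 35 in the wild type, −1.26 (−2.36 to −0.38). It was the only region of the 7 genes at least 2-fold lower, where 5.42% of all distal regions were, and 8.73% of distal regions of its level had a log2 ratio as low. The region 33.5 kb away, at 71676592 to 71676947, held 54 (mutant) and 83 (wild type), −0.61 (−1.13 to −0.09), and the one 23.2 kb away, at 71666316 to 71666551, held 67 and 85, −0.34 (−0.84 to 0.13).

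At hnf1ba (ENSDARG00000006615, chromosome 15, 16061127 to 16076941, minus strand), both distal regions lay inside the gene. The one 6.47 kb from the TSS, at 16069960 to 16070973, was the widest of the 30 regions and had the highest mean count, though not the highest per kb, and held 409 normalised reads in the mutant library, against 431 in the wild type, −0.08 (−0.28 to 0.12). The one 8.01 kb from the TSS, at 16068826 to 16069042, held 54 (mutant) and 80 (wild type), −0.56 (−1.09 to −0.04). The interval of the region with more reads included 0, and that of its neighbour lay below 0. The gene wt1a (ENSDARG00000031420, chromosome 25, 15081825 to 15117761, minus strand) had no distal region by these rules.

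**Figure D2:**
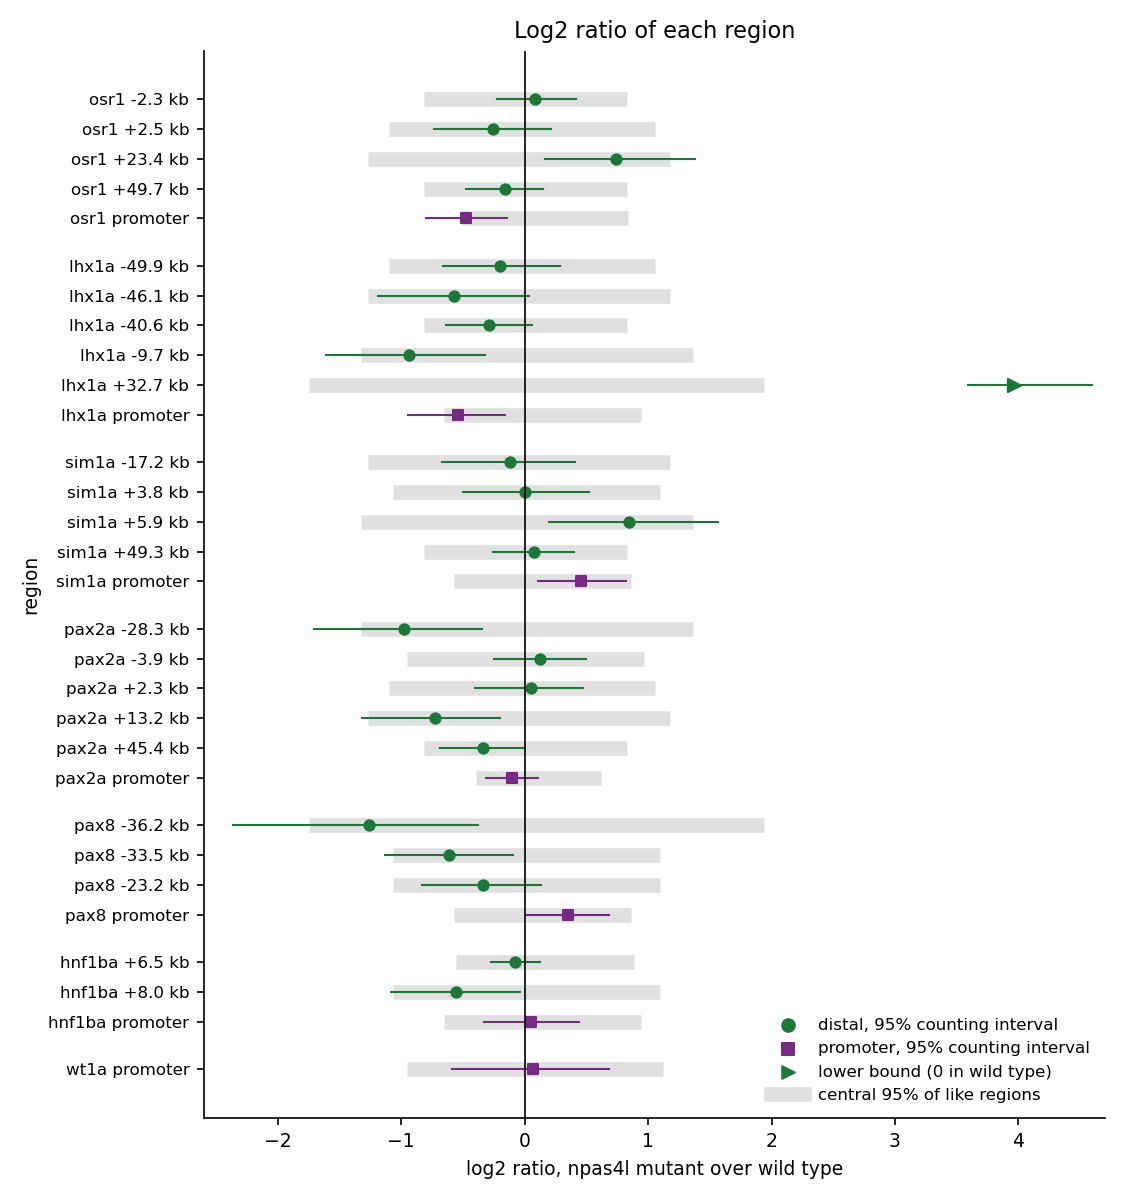
Log2 ratio (mutant over wild type) of each region with its 95% counting interval, distal regions as green circles and promoters as purple squares, over a grey bar that spans the central 95% of regions of like class and level. Every value lies on its grey bar except that of the region 32.7 kb downstream of lhx1a. Its triangle, named a lower bound in the key, marks the 15.6-fold difference from a floor of 3 wild type reads. Its counting interval begins lower, at a log2 ratio of 3.59.

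At the promoters, osr1 and lhx1a were lower in the mutant library, sim1a and pax8 higher, and pax2a, hnf1ba and wt1a had intervals that included 0. The osr1 promoter, at 32013778 to 32014045, held 138 normalised reads in the mutant library, against 192 in the wild type, −0.47 (−0.80 to −0.14). The lhx1a promoter, at 27777928 to 27778248, held 95 (mutant) and 139 (wild type), −0.54 (−0.95 to −0.16). These were the promoters nearest to the edge of the table: 3.22% and 4.75% of promoters of like level had a ratio as low as osr1 and lhx1a.

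The sim1a promoter, at 1478389 to 1479220, held 158 normalised reads in the mutant library, against 115 in the wild type, 0.45 (0.10 to 0.82). The pax8 promoter, at 71642994 to 71643530, held 176 (mutant) and 138 (wild type), 0.35 (0.02 to 0.68). Both were well within the table, where 84.7% and 75.7% of promoters of like level had a ratio as low or lower.

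The pax2a promoter, at 29640288 to 29640816, held 364 normalised reads in the mutant library, against 392 in the wild type, −0.11 (−0.31 to 0.11). The hnf1ba promoter, at 16076647 to 16077056, held 118 (mutant) and 114 (wild type), 0.05 (−0.33 to 0.44), and the wt1a promoter, at 15117714 to 15118060, held 45 and 43, 0.06 (−0.59 to 0.69). Each of these 3 intervals included 0, and a difference the size of that at sim1a lay inside the interval of wt1a, so it was not detectable at this depth there.

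Levels per length differed more between the promoters than between the libraries. In normalised reads per kb of region, pax2a (689 in the mutant library, 742 in the wild type library) and osr1 (517 and 719) were the most open. Next came pax8 (328 and 257), lhx1a (297 and 434) and hnf1ba (289 and 279), and last sim1a (190 and 138) and wt1a (130 and 124). In the mutant library, exact Poisson 95% intervals, which cover counting error only, separated pax2a from osr1, osr1 from pax8 and hnf1ba from sim1a. They overlapped among pax8, lhx1a and hnf1ba, and between sim1a and wt1a. In the wild type library lhx1a took the place after osr1, apart from both neighbours, and pax2a and osr1 overlapped. Among all promoters, the mean of both libraries per kb put pax2a at the 85.4 percentile, osr1 at the 81.0 and wt1a at the 7.75.

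Within a gene, distal and promoter regions could run in opposite directions. Summed over its distal regions pax8 held 135 normalised reads in the mutant library, against 203 in the wild type, while its promoter held 176 and 138. The log2 ratio of the distal sum was 0.93 below that of the promoter (difference −0.93, 95% conditional exact interval −1.40 to −0.46, counting error only). At osr1 the order was the reverse, with 472 (mutant) and 470 (wild type) over the distal regions and a difference of 0.48 (0.10 to 0.86) from the lower promoter. These were the 2 genes of the 6 whose interval excluded 0. How often such an interval excludes 0 over all genes was not counted, so whether this sets these genes apart is unknown.

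For lhx1a the difference of distal from promoter was 0.35 (−0.09 to 0.82), and 0.13 (−0.31 to 0.61) without the region at 0 in the wild type library. It was −0.34 (−0.77 to 0.08) for sim1a, −0.19 (−0.63 to 0.23) for hnf1ba and −0.14 (−0.44 to 0.13) for pax2a. The difference was below 0 in 4 of 6 genes, as in 62.2% of the 5808 genes of the table that had both classes, with a median of −0.17 for the 6 genes and −0.14 for all. A promoter above 0 with all distal regions below 0, as at pax8, occurred in 10.1% of the 1464 genes with at least 3 distal regions. Over all regions of a gene together, the log2 ratio of the summed values was −0.29 (−0.47 to −0.09) at lhx1a, −0.19 (−0.33 to −0.05) at pax2a and 0.22 (0.03 to 0.41) at sim1a. Without the region at 0, the lhx1a sum had −0.45 (−0.64 to −0.25), and its distal sum −0.41 (−0.64 to −0.17) against −0.20 (−0.41 to 0.03) with it. The sums of osr1, pax8, hnf1ba and wt1a had intervals that included 0. The share of all genes whose sum has an interval without 0 was not counted, so these sums have no background to be set against.

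**Figure D3:**
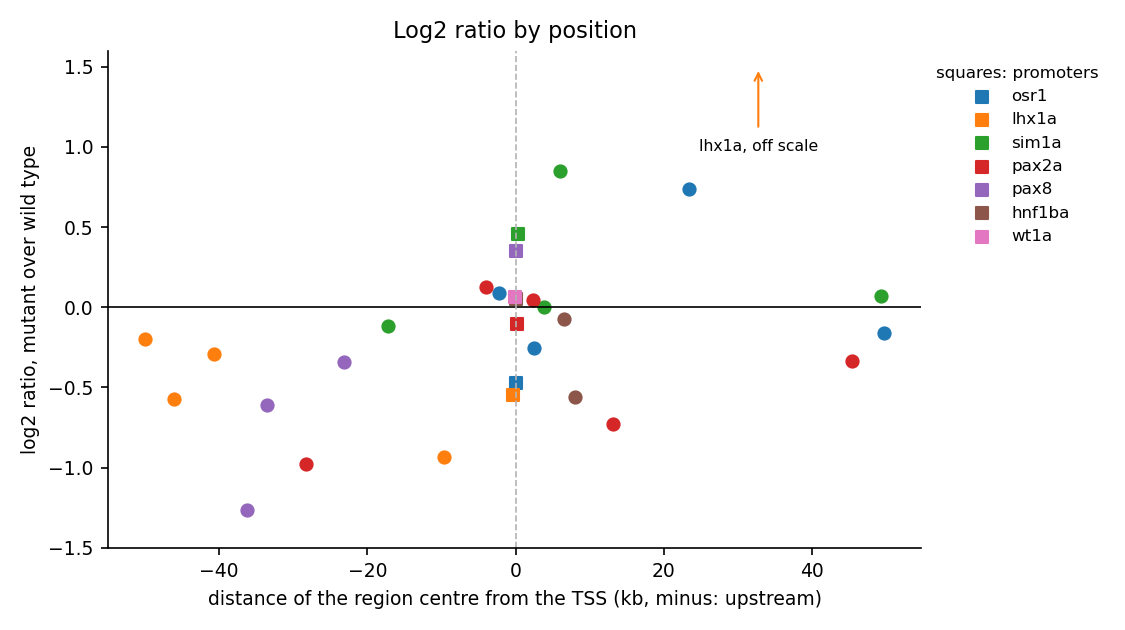
Log2 ratio (mutant over wild type) by distance of the region centre from the TSS in kb, with upstream to the left, 1 colour per gene and promoters as squares. Of the 11 upstream distal regions 9 lie below 0, where 55.0% of all upstream distal regions do. The region 32.7 kb downstream of lhx1a is off the scale (arrow).

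Position was looked at after the values were seen. Of 11 upstream distal regions, 9 lay below 0 with a median of −0.34, and 6 were at least 20% lower in the mutant library, where 30.5% of all upstream distal regions were. Of these 11, 7 belonged to lhx1a and pax8. The 7 regions inside a gene had a median of −0.08 and the 5 downstream ones 0.07. Over all genes the medians were −0.07 upstream, −0.15 inside the gene and −0.07 downstream, with 55.0% of upstream regions below 0.

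Median log2 ratios were lower beyond 10 kb than within it, in the 7 genes as in the whole table. The 14 distal regions beyond 10 kb had a median of −0.31, with 11 below 0, and the 9 within 10 kb had a median of 0, with 4 below and 4 above 0. Over all genes, regions beyond 10 kb had a median of −0.14 with 60.5% below 0, and those within 10 kb −0.04 with 52.6% below 0. The farther regions of the 7 genes were also less open, with a median mean of 65.0 normalised reads beyond 10 kb and 78.0 within it. The part of that level in the difference was not tested.

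**Figure D4:**
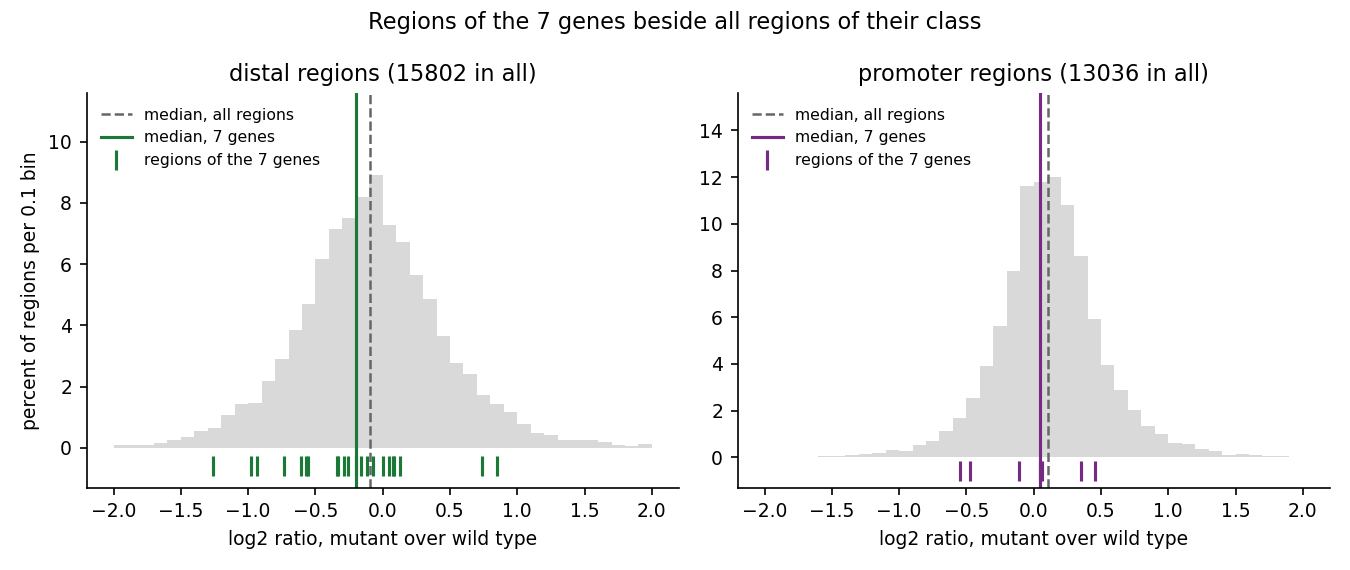
Distribution of the log2 ratio (mutant over wild type) over all distal regions (left) and all promoter regions (right) as percent of regions per bin, with the regions of the 7 genes as ticks and both medians as lines. The ticks spread over the bulk of each distribution, with the median of the 7 genes at −0.20 against −0.10 for distal regions and 0.05 against 0.11 for promoters; values beyond 2 and the region at 0 in the wild type library are not drawn.

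Other genes of the pathway fell into 5 lists with 69 genes in all: paralogs of the 7 genes, nephron patterning and early regulators, genes of multiciliated cells, podocyte genes, and transporters and tubule genes. Over all regions of the table, 24.6% were at least 20% lower and 23.4% at least 25% higher. By class, these shares were 32.0% and 20.9% of distal regions and 10.7% and 26.4% of promoters. The counts of a list therefore depend on its mix of distal and promoter regions.

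Of 6 paralogs, 5 had a region, 15 in all, of which 2 were at least 20% lower and 3 at least 25% higher, with a median log2 ratio of −0.02 over 11 distal regions and 0.11 over 4 promoters. The promoter of pax2b, the paralog of pax2a, held 388 normalised reads in the mutant library, against 318 in the wild type, 0.29 (0.07 to 0.50). A region 8.65 kb upstream of pax2b held 131 (mutant) and 93 (wild type), 0.49 (0.10 to 0.89). The region of the list with the highest mean count, 5.92 kb downstream of the TSS of osr2, held 477 and 530, −0.15 (−0.33 to 0.03). Beyond 10 kb, the pax2b regions 30.2 kb and 36.2 kb away had −0.16 and −0.33 and the one 49.4 kb away 0.38, with intervals that included 0. A region 1.76 kb from the TSS of osr2 held 103 (mutant) and 77 (wild type), 0.42 (−0.01 to 0.87).

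The patterning and early regulator list was the largest and the lowest at promoters. Of its 31 genes 27 had a region, 148 in all, of which 48 were at least 20% lower and 18 at least 25% higher. Its medians were −0.18 over 118 distal regions and −0.05 over 30 promoters. The highest mean counts were at the promoter of etv5a, an ETS factor of the FGF response (690 normalised reads in the mutant library, against 772 in the wild type, −0.16, −0.31 to −0.01), and at 2 regions of sall4, a zinc finger factor. These were its promoter (548 mutant and 699 wild type reads, −0.35, −0.51 to −0.18) and a region 1.02 kb from the TSS that ran the other way (634 mutant and 535 wild type reads, 0.24, 0.08 to 0.41). The most extreme region was linked to irx5a, an Iroquois homeodomain gene, and lay 26.2 kb upstream with 9 normalised reads in the mutant library, against 320 in the wild type, −5.00 (−6.46 to −4.24). A region 19.6 kb downstream of the TSS of foxc1a, a forkhead gene of mesoderm, held 58 (mutant) and 7 (wild type), 2.88 (1.99 to 4.51). Whether the DNA at these irx5a and foxc1a regions is the same in both embryos was not tested.

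The 3 lists named for differentiated pronephric cells are the multiciliated cell, podocyte, and transporter and tubule genes. Both embryos were at the 1-somite stage, and whether they held such cells was not tested. Of 7 multiciliated cell genes 4 had a region, 13 in all, with 5 at least 20% lower and 1 at least 25% higher, and medians of −0.30 over 8 distal regions and 0.25 over 5 promoters. The lowest lay at rfx2, a regulator of ciliary genes, 10.6 kb from its TSS, with 72 normalised reads in the mutant library, against 130 in the wild type, −0.84 (−1.28 to −0.41). The promoter of pkd2, which encodes a polycystin channel, held 721 (mutant) and 607 (wild type), 0.25 (0.09 to 0.41). The rfx2 promoter held 388 (mutant) and 456 (wild type), −0.23 (−0.44 to −0.04), and 2 more rfx2 regions lay 16.1 kb away, with −0.52 (−0.85 to −0.21), and 27.0 kb away, with −0.02 (−0.28 to 0.24). Most of the 8 distal regions of this list belonged to rfx2, and their log2 ratios ran from −0.84 up to 0.21 (−0.06 to 0.49).

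Of 9 podocyte genes 4 had a region, 9 in all, with 2 at least 20% lower and 3 at least 25% higher. The highest mean counts were at vegfaa, the VEGF ligand that podocytes also produce. Its promoter held 510 normalised reads in the mutant library, against 378 in the wild type, 0.43 (0.24 to 0.63), and the region 1.40 kb from the TSS 307 and 206, 0.57 (0.32 to 0.84). Another vegfaa region, 43.7 kb away, was lower, with 49 (mutant) and 75 (wild type), −0.60 (−1.17 to −0.08). At cd2ap, which encodes an adaptor of the podocyte slit diaphragm, the promoter held 236 (mutant) and 214 (wild type), 0.14 (−0.13 to 0.42), and a region 6.59 kb away 35 (mutant) and 22 (wild type), 0.65 (−0.11 to 1.54).

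Of 16 transporter and tubule genes 6 had a region, 10 in all, with 3 at least 20% lower and 3 at least 25% higher. The promoter of lrp2a, the megalin endocytic receptor, held 795 normalised reads in the mutant library, against 617 in the wild type, 0.37 (0.21 to 0.52). The promoter of slc13a3, a sodium-dependent dicarboxylate transporter, held 52 (mutant) and 30 (wild type), 0.77 (0.12 to 1.49). The region 3.43 kb from the TSS of trpm7, a cation channel, ran the other way with 135 (mutant) and 180 (wild type), −0.41 (−0.75 to −0.08). At cdh1, the E-cadherin gene, the promoter held 21 (mutant) and 34 (wild type), −0.67 (−1.53 to 0.16), and a region 12.2 kb away 312 (mutant) and 338 (wild type), −0.12 (−0.34 to 0.11). Under their symbols, the pronephric markers cdh17, slc20a1a and nphs1 had no assigned region.

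**Figure D5:**
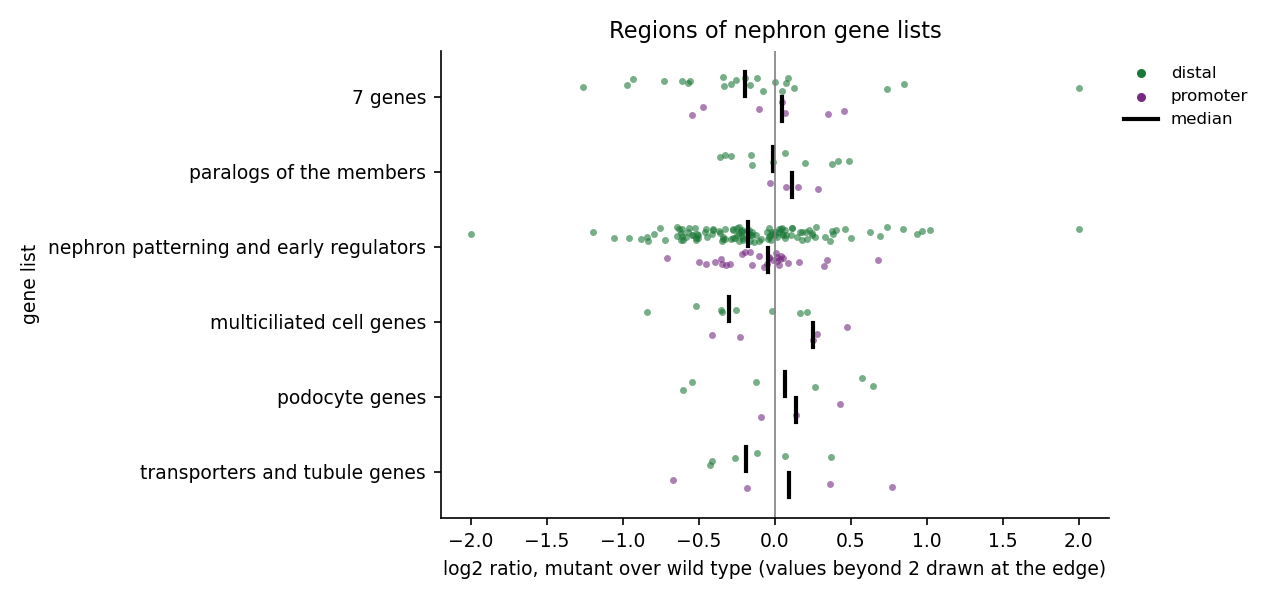
Log2 ratio (mutant over wild type) of every region of the 7 genes and of 5 nephron gene lists, with distal regions in green above promoters in purple and black bars at the medians. Medians lie between −0.30 and 0.07 for distal regions and between −0.05 and 0.25 for promoters.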

How the data were processed

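The deposited table gives, for each open region of both ATAC-seq libraries, its position on GRCz10 (danRer10), an assigned gene, and 1 value per library. Tools listed without a role in the submitters' processing notes are STAR 2.5.3a and Trimmomatic 0.36, MACS2 and Picard 2.9.0, DESeq and DESeq2 1.14.1, and deepTools 2.5.4. The sources used here do not give how regions were merged, duplicates treated or read ends shifted, nor whether coordinates count from 0 or 1. The library values are whole-number scores, read counts that the authors scaled and rounded, as the values show. Of the mutant values up to 4000, 99.96% are whole reads times 1.06505 within rounding (93.9% by chance), and the reciprocal served as the wild type factor. Division by these estimates gave the recovered reads, which served for intervals and floors only. The deposited log2 ratio equals that of the values plus 1. The deposited fraction of a region inside its gene, per the file headers, was read but not used. The lowest mean of both libraries was 20.5.

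No test of genotype could be made with 1 library each, and regions were described by the log2 ratio, and counted when at least 20% lower, at least 25% higher or 2-fold different, on the scale of values plus 1. All promoters were named, and distal regions that passed a size rule or held the highest mean of their gene; others were summarised. In the other lists, up to 3 regions with the highest mean and 2 with the largest log2 ratio in either direction were eligible to be named. Outside this rule, the pax2b regions 36.2 kb and 49.4 kb from the TSS and the rfx2 region with a log2 ratio of 0.21 were also given. Genes were matched by the symbol in the table, or a gene name table where it gave none. The 7 genes, the lists and the rules were chosen with earlier results of these data known. Alternatives covered the pseudocount, the scaling, a mean filter of 50, the linking distance, the promoter limit and leaving out each gene. Intervals, linking and read recovery were tested on simulated data. The scripts ran in Python 3.11.15 with pandas 2.3.3, matplotlib 3.10.9, scipy 1.17.1 and numpy 2.4.6.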

Additional observations from a re-analysis of the deposited data

How the results depend on the processing

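No paired analysis was possible because each genotype had 1 library, and no library could be left out for the same reason. Medians of all, distal and promoter regions moved by less than their spread under every alternative. Log2 ratios of single regions spread widely (interquartile range 0.61 over all regions), so a median could hardly fail this rule, and it says little about stability. Centring on the median of all regions changed nothing, since that median was 0. The distal median lay between −0.29 (without osr1 or without sim1a) and 0.05 (assigned regions only, an alternative chosen after seeing the data), and was −0.08 with linking within 20 kb. The promoter median was −0.03 without pax8, without sim1a, without wt1a or with a mean of at least 50, so its sign is not settled. The difference of medians (distal minus promoter) ran from −0.35 without osr1 to −0.001 with assigned regions only. It was −0.15 with a mean of at least 50, −0.12 with linking within 20 kb and −0.11 without pax8. Counts of regions past a size rule moved with the number of regions counted. Those at least 20% lower were 11 in all, 5 with linking within 20 kb, 2 with assigned regions only and 4 with 1 region per gene and class (also chosen after seeing the data). Those at least 25% higher were 5 in all, 3 with linking within 20 kb, with a mean of at least 50 or without sim1a, and 2 with assigned regions only or with 1 region per gene and class. The 2 regions at least 2-fold different became 1 without lhx1a, without pax8 or without the region at 0 in the wild type library, and 0 with a mean of at least 50, linking within 20 kb, assigned regions only or 1 region per gene and class. They were 3 under both scalings by totals and with linking within 100 kb. Of 202 values of single regions and gene sums under alternatives, all but 1 stayed within their counting intervals: the log2 ratio 32.7 kb downstream of lhx1a was 3.29 with a pseudocount of 5. That was nearly fixed in advance, since the scalings shifted log2 ratios by 0.04 at most. Interval ends this close to 0 are not settled by the scaling. They include the lower ends of the pax8 promoter (0.02) and the sim1a sum (0.03), and the upper end 45.4 kb downstream of pax2a (0.001). The sign of the sim1a region 3.77 kb from the TSS and of the distal sum of osr1, both near 0, changed with the scaling. Depth limits regions such as the wt1a promoter, and with 1 embryo per genotype the spread between embryos is unknown.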

Other observations

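Between 50 and 100 kb from the TSS of the 7 genes lay 10 further regions without an assigned gene, of which 9 were below 0, with a median log2 ratio of −0.20. Of all 3802 regions without an assigned gene at such distances from their nearest TSS, 60.4% were below 0, with a median of −0.14. The region 69.4 kb upstream of osr1 held 23 normalised reads in the mutant library, against 54 in the wild type, a log2 ratio of −1.20 with an interval below 0. The region 69.3 kb downstream of sim1a held 38 (mutant) and 69 (wild type), −0.84 (−1.46 to −0.24), while no nearer sim1a region had an interval below 0. The region 78.4 kb downstream of osr1 held 23 and 39, −0.74 (−1.57 to 0.03), and the remaining 7 lay between −0.26 and 0.30 with intervals that included 0. These regions were looked at with an alternative linking distance, and enter the values above only where linking within 100 kb is meant.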
